A study of Equus caballus with 6 samples.

Results

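PRG4 is the gene for lubricin, also called proteoglycan 4 or superficial zone protein, and it was followed here across 6 regions of horse joint tissue. It is 1 gene of the 13602 that the probe descriptions named. Every non-control probe whose description names PRG4 was taken, which gave 5 probes. A single further probe, described as proteoglycan 4-like, was kept apart, and 1 probe for chondroitin sulfate proteoglycan 4, a different gene, was left out.

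Lubricin is a secreted glycoprotein whose long middle stretch carries many short O-linked sugar chains. Its ends, which resemble somatomedin B and hemopexin, hold it to the joint surface, where it lowers friction and keeps cells and proteins from sticking. It is made by chondrocytes of the superficial zone of articular cartilage and by cells of the synovial lining, and loss of the gene in people causes early joint failure. In mice, Prg4 is used to mark the surface cells of the developing joint.

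Each region was measured on 1 array; differences are given without p-values and could not be checked against replicates. Adult articular cartilage of the stifle, labelled with an age of 15 years, was divided into a superficial zone (the outer 10% of its thickness), a middle zone (labelled as the adjacent 20–30%) and a deep zone (50–90% of the depth). Hindlimbs at gestational day 40 gave the intermediate interzone, the outer interzone and transient cartilage. The interzone is the band of cells between future bones where the joint will form, and transient cartilage is the embryonic template that bone later replaces. The labels give no treatment, strain or allele for any group. Cells were collected by laser capture microdissection, and their RNA was amplified by PCR before labelling, which can alter relative amounts. How many animals were used is not stated in the sources at hand. The 3 adult arrays lay on 1 slide and the 3 fetal arrays on another, so slide and stage cannot be told apart. In captured tissue, fewer cells that express a gene and less RNA per cell cannot be told apart either.

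The arrays differed in how much they detected. The share of the 43603 probes that were well above background, by the scanner software's flag, was 26.4% in the superficial zone, 8.4% in the middle zone and 10.9% in the deep zone. It was 36.9% in the intermediate interzone, 43.3% in the outer one and 44.6% in transient cartilage. A gene was counted as detected where any of its probes was well above background. Of 11 genes that nearly all cells use, 8 were detected in the superficial zone, 4 in the middle zone, 5 in the deep zone and all 11 on each fetal array. GAPDH was not well above background in the middle zone. The cartilage marker list was detected in full in transient cartilage (13 of 13 genes), with 8 genes in the intermediate and 11 in the outer interzone, but with only 5, 5 and 6 genes in the superficial, middle and deep zones. No probe for COL2A1, the main collagen gene of cartilage, was well above background in the superficial or middle zone, and 1 of its 6 probes was in the deep zone. The aggrecan gene ACAN and COMP were well above background in all 3 adult zones. Of 10 interzone and joint markers, 2 were detected in the superficial zone, 0 in the middle and deep zones, 6 in each interzone region and 5 in transient cartilage.

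The 5 PRG4 probes carry nearly the same sequence, which matters for reading their agreement. Each is 60 bases long, and they start at bases 108 to 112 of a partial horse PRG4 mRNA, shifted by 1 base from one to the next. Capitals mark the 56 bases that all 5 share, and sequences run 5′ to 3′ as the array files give them. The last line is the proteoglycan 4-like probe, which starts at base 408 of its own predicted transcript and shares no run longer than 5 bases with the PRG4 probes.
A_69_P004135: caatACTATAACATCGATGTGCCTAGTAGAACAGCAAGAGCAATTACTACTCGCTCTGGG
A_69_P004134: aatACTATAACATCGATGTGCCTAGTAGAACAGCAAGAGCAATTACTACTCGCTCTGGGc
A_69_P004133: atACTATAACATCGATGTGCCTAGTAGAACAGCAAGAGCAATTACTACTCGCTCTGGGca
A_69_P004132: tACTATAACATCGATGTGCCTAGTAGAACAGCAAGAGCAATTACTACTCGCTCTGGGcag
A_69_P004131: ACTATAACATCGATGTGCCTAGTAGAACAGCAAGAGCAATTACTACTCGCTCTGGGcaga
A_69_P074091: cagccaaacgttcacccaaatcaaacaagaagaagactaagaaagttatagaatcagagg

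The 5 probes together span 64 bases, so they are repeat readings of one short stretch of the mRNA and not independent measurements of the gene. They sit on separate spots of the array. No other probe on the array shares a run of 20 bases with any of the 6. The GC content is 43.3% to 45.0% in the PRG4 probes and 38.3% in the proteoglycan 4-like probe. The files name no genome build, so no genome position is given.

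PRG4 was bright in the superficial zone and in both interzone regions, and dim in the middle zone and in transient cartilage. The probe with the highest mean, A_69_P004135, is reported for the gene. Its processed signal, an intensity after background subtraction, was 83100 in the superficial zone, 52.6 in the middle zone and 963 in the deep zone. In the fetal limb it was 34900 in the intermediate interzone, 45400 in the outer one and 77.6 in transient cartilage. The dimmest of these is still a detected signal: all 5 probes were well above background on all 6 arrays, and the lowest signal with that flag lay between 7.65 and 9.35 on the 6 arrays. PRG4 stood at 6.68 times that lowest signal in the middle zone and at 8.30 times in transient cartilage, against 10085 times in the superficial zone. No spot was saturated on any array.

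Among themselves the 5 probes differed little. Their signals ran from 74900 to 86300 in the superficial zone, from 37.0 to 52.9 in the middle zone and from 705 to 963 in the deep zone. They ran from 30400 to 34900 in the intermediate interzone, from 38400 to 49400 in the outer interzone and from 56.5 to 77.6 in transient cartilage. None of these ranges overlapped with that of another array, and the closest were those of the middle zone and transient cartilage, with 52.9 as the highest in the middle zone and 56.5 as the lowest in transient cartilage. A_69_P004132 was the lowest of the 5 on 4 arrays and A_69_P004134 on the other 2, the superficial zone and the intermediate interzone. The SD over the 5 probes was 0.08 to 0.22 on the log2 scale, largest on the middle array, where the signal was lowest.

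**Figure D1:**
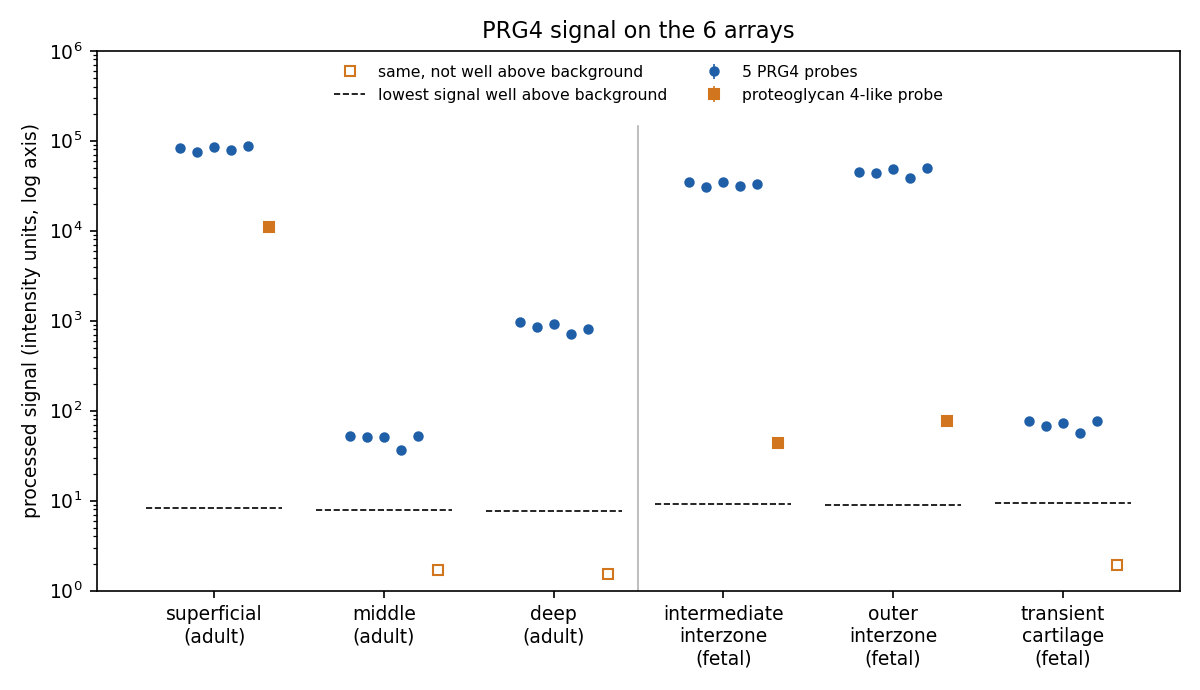
Processed signal (log axis) of the 5 PRG4 probes (circles) and the proteoglycan 4-like probe (squares) on the 6 arrays, with the spot error of each as a bar that is mostly smaller than the symbol, and the lowest signal well above background as a dashed line. The PRG4 probes lie above the dashed line on every array, while the proteoglycan 4-like probe lies below it in the middle zone, the deep zone and transient cartilage.

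To compare arrays, each signal was put on the log2 scale and set against the 75th percentile, on that array, of the 1767 probes that passed the background flag on every array. On this scale PRG4 was at 5.02 in the superficial zone, -3.26 in the middle zone and 0.12 in the deep zone. It was at 3.86 in the intermediate interzone, 3.37 in the outer one and -5.78 in transient cartilage. The order from high to low was superficial, intermediate interzone, outer interzone, deep, middle and transient cartilage. Relative to the superficial zone, PRG4 reached 44.7% in the intermediate interzone, 31.8% in the outer one, 3.34% in the deep zone, 0.321% in the middle zone and 0.0559% in transient cartilage.

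Neighbours in that order were set against the spot error of a difference. The scanner software gives this error for each spot, and it leaves out variation between animals, dissections and amplifications. It was 10.0% to 10.9% of the signal on the PRG4 spots, so the error of a difference was nearly the same in every comparison of 2 arrays. The superficial zone exceeded the intermediate interzone by 1.16 ± 0.20 (log2, spot error). The intermediate interzone exceeded the outer interzone by 0.49 ± 0.20, and this was the smallest step, with a range of 0.29 to 0.59 over the 5 probes. The next steps down were 3.25 to the deep zone, 3.38 to the middle zone and 2.52 to transient cartilage. The order of the interzone regions comes from the scaling, since the unscaled signal of the intermediate interzone (34900) was below that of the outer interzone (45400). The order of the last pair comes from the scaling too. Unscaled, the middle zone (52.6) was below transient cartilage (77.6). On the scaled level every step was larger than both the spot error and the width of the range over the 5 probes. The step between the interzone regions fell to 0.16 with the 50th percentile.

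In the intermediate interzone, PRG4 was 799-fold higher than in transient cartilage, a log2 difference of 9.64 ± 0.21 (spot error). Over the 5 probes this difference ran from 9.59 to 9.96, and with normexp background correction it was 8.61. It was the highest of 4311 genes measured on both arrays, of which 14.8% were higher there by 4-fold or more, and whose median difference was 0.35. Cartilage markers moved the other way, with 8 of 8 measured members at least 4-fold lower and a median difference of -3.96, beside 6.68% of all genes, and their part in the PRG4 difference was not tested. The next genes in the order were CACNB3, a calcium channel subunit gene, at 564-fold, and EGFL6, which encodes an extracellular matrix protein with EGF-like repeats, at 416-fold. Of 780 further genes that were well above background only in the intermediate interzone, 0 had a lower bound on their fold as large as that of PRG4.

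In the outer interzone, PRG4 was 568-fold higher than in transient cartilage (log2 difference 9.15 ± 0.21, spot error, with 9.15 to 9.37 over the 5 probes and 8.10 with normexp). This was again the highest of all genes measured on both arrays, 4800 in number. Of these, 10.5% were higher there by 4-fold or more. Of the cartilage markers, 10 of 11 measured members were at least 4-fold lower, with a median difference of -3.90, beside 8.35% of all genes. EGFL6 came next to PRG4 at 183-fold, and the growth factor gene PDGFC followed at 89.1-fold. Between the interzone regions the PRG4 difference of 0.49 was an ordinary one: it was number 1702 of 4275 genes counted from the top, next to OTOR and H3-3A above it and TAF1B and SORBS3 below it. Of those genes, 10.9% were higher by 4-fold or more in the intermediate interzone, 7.27% were lower by as much, and their median was 0.21.

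In adult cartilage the PRG4 signal was not graded evenly with depth, since it was lower in the middle zone than in the deep zone. The superficial zone exceeded the middle zone 312-fold (log2 difference 8.28 ± 0.21, spot error, and 8.18 to 8.73 over the 5 probes), the highest of 997 genes measured on both. Other scalings of the arrays moved this difference to between 6.69 and 10.24. In the superficial zone 9.63% of those genes were higher by 4-fold or more and 36.9% lower by as much, with a median of -1.50. RSRC2 came next at 159-fold and STX17, a syntaxin gene, at 102-fold. A further 2872 genes were well above background in the superficial but not in the middle zone, and 5 of them had a lower bound at least as large as the fold of PRG4. One of these is SDC4, the gene of the heparan sulfate proteoglycan syndecan-4, at 416-fold or more. The difference between these zones stands beside the low detection in the middle zone, where 8.4% of probes were well above background and where GAPDH and B2M were not, against 26.4% in the superficial zone. The part of that in the PRG4 difference was not tested.

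Against the deep zone PRG4 was 30.0-fold higher in the superficial zone (log2 difference 4.91 ± 0.20, spot error, and 4.91 to 5.29 over the 5 probes), and other scalings moved this difference to between 3.99 and 5.995. Here 22 of 1251 genes had a higher difference, 11.3% were at least 4-fold higher in the superficial zone and 21.0% at least 4-fold lower, and the median was -0.83. A further 2615 genes were well above background in the superficial zone alone, and 461 of them had a lower bound at least as large as the fold of PRG4. TNFRSF11B, the gene of osteoprotegerin, and HNRNPC stood directly above PRG4 at 34.3-fold and 30.9-fold, and VPS13D and ZNF292 directly below it at 29.8-fold and 29.2-fold. In the middle zone PRG4 was 10.4-fold lower than in the deep zone (log2 difference -3.38 ± 0.21, spot error, and -3.44 to -3.13 over the 5 probes). This difference was -1.14 with quantile normalization, which is under 4-fold, -2.46 with normexp and -4.24 with the authors' values. It was number 43 of 808 genes counted from the lowest difference, where the median of all genes was 0.80, 8.04% of genes were at least 4-fold lower and 12.9% at least 4-fold higher. A further 828 genes were well above background in the deep zone alone, and 344 of them had a bound at least as large as the difference of PRG4. SSTR1, a somatostatin receptor gene, lay next to it on the lower side at 10.5-fold lower, and PTPRU on the other at 9.94-fold lower. Other genes were low in the middle zone too. Of the cartilage markers, 3 of 4 measured members were at least 4-fold lower there than in the deep zone, with a median of -4.93. Of 3 measured genes that nearly all cells use, ACTB was 11.8-fold lower and 2 differed by less than 4-fold. GAPDH and PGK1 were well above background in the deep but not the middle zone. The part of this in the PRG4 difference was not tested.

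The superficial zone of the adult joint held 2.24-fold more PRG4 than the intermediate interzone (log2 difference 1.16, with 1.16 to 1.30 over the 5 probes). The scaling matters here, since the difference was 3.47 with the percentile over all probes, 1.67 with the authors' values and 1.48 with quantile normalization. The authors' values are ratios to each array's median, and the median signal of non-control spots was 1.53 to 5.37. That is below the lowest signal well above background (7.65 to 9.35). The percentile over all probes includes those not well above background, which were the majority on every array. The main value was number 700 of 2703 genes, of which 16% were at least 4-fold higher and 17.8% at least 4-fold lower in the superficial zone. The mean of the 3 adult zones exceeded that of the 3 fetal regions by 0.14, or 1.10-fold, which is below the median of 0.54 over 576 genes. This difference has no settled direction: it was -0.41 with the authors' values, 0.79 with quantile normalization and 2.84 with the percentile over all probes. Of those genes 15.3% were at least 4-fold higher and 9.55% at least 4-fold lower in the adult. PRG4 levels ran from -3.26 to 5.02 in the adult zones and from -5.78 to 3.86 in the fetal regions. On this scaled level the superficial zone lay above every fetal region, transient cartilage lay below every adult zone, and the other 4 regions lay between them. Without scaling, transient cartilage (77.6) was above the middle zone (52.6).

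**Figure D2:**
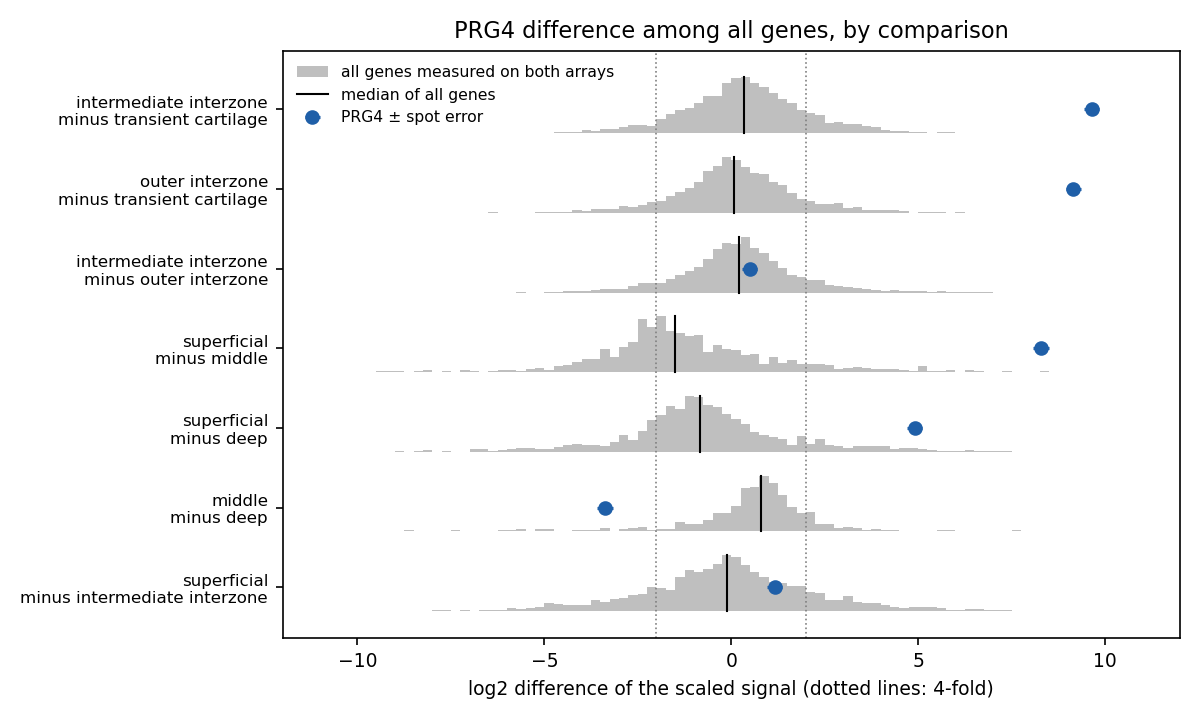
Log2 difference of PRG4 (circle, bar for the spot error) in 7 comparisons, over the distribution of all genes measured on both arrays (grey, scaled to its own peak) with their median as a black line. PRG4 lies beyond all other measured genes in both comparisons of an interzone region with transient cartilage and in the superficial minus middle comparison, and among the other genes in the intermediate minus outer interzone comparison (0.49, median 0.21).

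The proteoglycan 4-like probe gave the same bright superficial zone but a different picture of the fetal limb. Its processed signal was 10900 in the superficial zone, with 1.70 and 1.53 in the middle and deep zones. It was 43.5 in the intermediate interzone, 76.5 in the outer one and 1.91 in transient cartilage. The readings in the middle zone, deep zone and transient cartilage were not well above background, so this probe has only an upper limit there.

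Both interzone regions were therefore dim by this probe. The superficial zone was 235-fold higher than the intermediate interzone by the proteoglycan 4-like probe, against 2.24-fold by the PRG4 probe. The difference between these differences was 6.72 ± 0.30 (log2, spot errors). Against the outer interzone, a comparison added after the values were seen, the superficial zone was 245-fold higher by the proteoglycan 4-like probe and 3.15-fold higher by the PRG4 probe, a gap of 6.28 ± 0.29. Of 813 genes with several measured probes, 9 (1.11%) differed as much between probes for the intermediate interzone. For the outer interzone 8 of 896 (0.893%) did, and the median ranges were 0.49 and 0.47. How far the probes of those genes overlap in sequence was not tested. Overlapping probes, like those of PRG4, read nearly the same stretch. These shares therefore cannot tell how rare such a gap is between separate stretches of 1 transcript.

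Where the proteoglycan 4-like probe had only limits, they ran the same way as PRG4. Over transient cartilage it was higher by at least 8.27-fold in the intermediate interzone and by at least 7.95-fold in the outer one. Within adult cartilage the superficial zone exceeded the middle zone by at least 273-fold and the deep zone by at least 495-fold, where PRG4 gave 30.0-fold for the deep zone. Between the interzone regions it differed by 0.06, or 1.04-fold. Which transcript of the locus this probe reads was not tested, since the gene table used here holds no entry for its locus number and no transcript sequence was used here.

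Few genes followed PRG4 over the 6 arrays. Genes were compared where their probe passed the background flag on every array and spanned at least 16-fold, which left 168 genes. Likeness was Pearson's r over the 6 scaled log2 levels, a description of 6 arrays that share amplification and slides. None of the 168 reached 0.9, and 92 lay below 0.

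The highest was SPRY2, an inhibitor of receptor tyrosine kinase signalling, with r = 0.84. It was at -1.88 in the superficial zone, -5.71 in the middle zone, -6.70 in the deep zone, -3.78 in the intermediate interzone, -4.31 in the outer one and -6.69 in transient cartilage. Thus SPRY2 shared the 3 highest arrays of PRG4 in the same order, but was not higher in the deep than in the middle zone. LCN2, which encodes the iron-siderophore binding protein lipocalin-2, had r = 0.69. MKX, a transcription factor of tendon, had 0.68 and KLF4, a zinc finger transcription factor, 0.64. EMP1 had 0.63, PPM1G 0.60, DDX5 0.60, HNRNPA1 0.57, FAM76A 0.56 and the chemokine scavenger gene ACKR4 0.53. KLF4 was highest in the superficial zone at -0.53 and lay between -5.52 and -3.61 on the other 5 arrays.

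The genes least like PRG4 were CCNF, with r = -0.92, MCM3 with -0.90, PAFAH1B3 with -0.81 and H1-2, a linker histone gene, with -0.75. MCM3, a subunit of the helicase that replicates DNA, was highest in transient cartilage at -2.93 and lowest in the superficial zone at -7.13. CCNF, the gene of cyclin F, was likewise highest in transient cartilage, at -3.27, while H1-2 was highest in the middle zone, at -1.71.

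**Figure D3:**
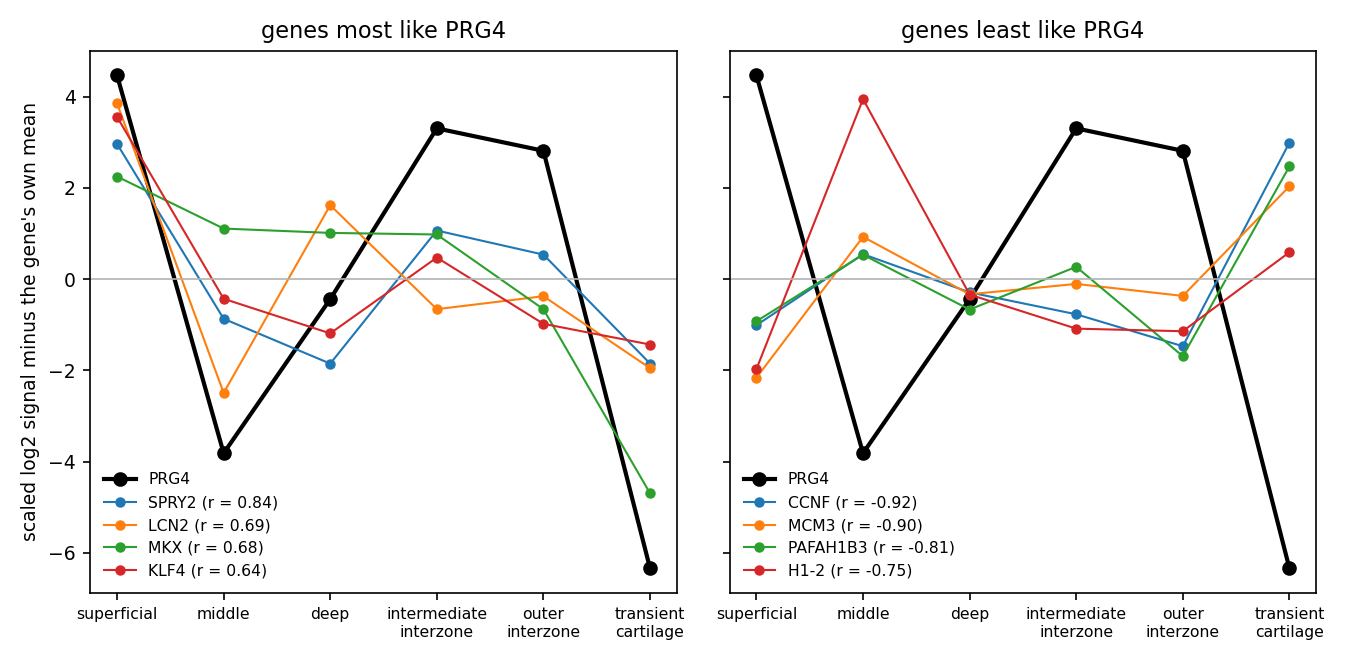
Scaled log2 signal minus each gene's own mean on the 6 arrays for PRG4 (black) with the 4 genes most like it (left) and the 4 least like it (right), with Pearson's r in the legend. SPRY2 follows PRG4 over the superficial zone and both interzone regions, and CCNF, MCM3 and PAFAH1B3 are highest in transient cartilage, where PRG4 is lowest.

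A wider view comes from detection alone. There were 69 genes well above background on the 3 arrays with the highest PRG4 (superficial, intermediate interzone and outer interzone) and by no probe on the other 3, against 7 genes with the opposite pattern. The 10 brightest of the 69 were RGS2, INPP5B, CCDC80, TAGLN, HPS3, SGCB, FAM20A, KCNJ8, DNAJC21 and BMP4. RGS2, a regulator of G protein signalling, was at 0.74 in the superficial zone, -3.16 in the intermediate interzone and -4.48 in the outer interzone. BMP4, a bone morphogenetic protein gene, was at -5.31, -1.57 and -3.53 on these arrays in that order. TAGLN encodes the actin-binding protein transgelin and was at -2.62, -3.19 and -2.28. The lower detection in the middle and deep zones stands beside the first pattern, and its part was not tested.

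Among reported partners of lubricin in the joint, CD44, a hyaluronan receptor to which lubricin binds, was not highest where PRG4 was. It was at 0.65 in the superficial zone, 4.17 in the middle zone, -4.56 in the intermediate interzone and -3.28 in the outer interzone, and not well above background in the deep zone or transient cartilage. In the superficial zone CD44 was thus 11.5-fold below the middle zone, while PRG4 was 312-fold higher. Over transient cartilage it was higher by at least 19.4-fold in the intermediate interzone and by at least 47.0-fold in the outer one. TLR4, a second receptor that lubricin can bind, was well above background in the superficial zone (-1.57) and the intermediate interzone (-6.42), and TLR2 in the intermediate (-4.09) and outer interzone (-6.83).

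FN1 and COMP encode fibronectin and cartilage oligomeric matrix protein, matrix proteins to which lubricin attaches. FN1 was at 4.52, 3.50 and 6.06 in the superficial, middle and deep zones, and at 0.87, 0.64 and -1.37 in the intermediate interzone, outer interzone and transient cartilage. It was 4.73-fold and 4.04-fold higher in the intermediate and outer interzone than in transient cartilage. COMP ran the other way, 14.5-fold and 8.63-fold lower in these regions than in transient cartilage, and it was 16.3-fold lower in the superficial than in the deep zone. HAS2, a hyaluronan synthase gene, was at -6.49, -0.09 and -5.75 in the superficial, middle and deep zones, opposite to PRG4 over depth.

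As a group, the 13 lubrication and matrix genes on the array did not follow PRG4. In the intermediate interzone against transient cartilage, 6 were measured on both arrays, of which 2 were at least 4-fold higher and 4 at least 4-fold lower, with a median difference of -2.74 against 0.35 over all genes. For the outer interzone the counts were 3 higher and 3 lower of 8. Between the superficial and the middle zone, 4 were measured, of which 0 were at least 4-fold higher and 2 at least 4-fold lower, and 6 more were well above background only in the superficial zone. The background shares for these comparisons are those given with PRG4 above (14.8% higher in the intermediate interzone and 10.5% in the outer one), and 6.68% and 8.35% of genes were lower there by 4-fold or more.

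The middle of lubricin is built up by enzymes that add and extend O-linked sugars, of which 21 were on the array. Detection was sparse, with 6 genes in the superficial zone, 1 each in the middle and deep zones, 5 in the intermediate interzone, 6 in the outer one and 8 in transient cartilage. The shares of all probes well above background, counted per probe, were 26.4%, 8.4%, 10.9%, 36.9%, 43.3% and 44.6% on these arrays. GALNT15, a transferase that starts such chains, was well above background in the superficial zone alone (0.38), at least 83.5-fold higher than in the middle zone and at least 151-fold higher than in the deep zone. ST6GALNAC4, a sialyltransferase gene, was also detected in the superficial zone alone, at -2.33. GCNT1, which branches the chains, lay between 2.55 and 4.18 on all 6 arrays. Of 5 members measured in the intermediate interzone and transient cartilage, 0 differed by at least 4-fold, and in the outer interzone 1 of 5 did, GALNT11, at 4.74-fold higher.

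TGF-beta raises lubricin synthesis in cultured chondrocytes, and 12 of its ligands, receptors and SMADs were on the array. TGFB2, a ligand gene, resembled PRG4 in the fetal limb but not in the adult. It was at -0.43 in the intermediate interzone, 0.06 in the outer one and -4.27 in transient cartilage, which made it 14.3-fold and 20.1-fold higher in the interzone regions. In the adult it was at -1.60 in the superficial and 1.97 in the middle zone, 11.9-fold lower in the superficial zone, and not well above background in the deep zone. LTBP1, which encodes a binding protein of latent TGF-beta, was 8.11-fold and 10.2-fold higher in the intermediate and outer interzone than in transient cartilage, and was not detected in adult cartilage.

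The receptor gene TGFBR1 was well above background in the superficial (-2.54) and middle (-4.38) zones. SMAD7, an inhibitor of the pathway that TGF-beta itself induces, was at -1.76, -3.79 and -4.93 in the superficial, middle and deep zones and at -5.20, -7.98 and -8.23 in the intermediate interzone, outer interzone and transient cartilage. The superficial zone exceeded the middle zone 4.09-fold, and the intermediate interzone exceeded transient cartilage 8.18-fold. Of the list, 4 of 6 measured genes were higher by 4-fold or more in the intermediate interzone and 3 of 7 in the outer one. This stands beside 14.8% and 10.5% of all measured genes, and 0 measured members were lower by as much in either. Median differences of the measured members were 2.80 and 1.15, against 0.35 and 0.08 over all genes. A further 3 members passed the background flag in transient cartilage but not in the intermediate interzone, against 0 with the reverse pattern. Among them, SMAD4 fell short of its transient cartilage level by a factor of 12.5 or more, and TGFBR2 by 3.89 or more. For the outer interzone there was 1 such member, and 0 with the reverse pattern.

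Other reported regulators of PRG4, 23 on the array, included transcription factors, growth factors and cytokines. By any probe, 13 were well above background in the superficial zone, 6 in the middle zone, 3 in the deep zone, 9 in the intermediate interzone, 14 in the outer one and 10 in transient cartilage. The shares of all probes were 26.4%, 8.4%, 10.9%, 36.9%, 43.3% and 44.6% on these arrays in the same order. A gene with several probes is counted if any of them passes, so these counts and the shares of single probes are unlike measures. CREB5, a transcription factor that in cattle is needed for PRG4 expression in superficial chondrocytes, was detected in the superficial zone (-5.27) and outer interzone (-5.54) and on no other array. ERG, a transcription factor of joint-forming cells, was at -2.42 in the superficial zone, -2.27 in the intermediate interzone, -2.12 in the outer one and -3.20 in transient cartilage, and was not detected in the middle or deep zone. For ERG, the superficial zone exceeded the deep zone by at least 21.7-fold.

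GDF5, the growth factor gene that marks the interzone, was detected in the interzone regions alone, at -1.90 in the intermediate and -3.38 in the outer one, with lower bounds of 122-fold and 43.8-fold over transient cartilage. PRG4 was bright in the superficial zone, where GDF5 was not well above background. FOXO3, which in mice helps to maintain Prg4 in the superficial zone, was at -1.72 there, -7.09 in the outer one and -4.67 in transient cartilage. EGFR, a growth factor receptor gene tied to superficial chondrocytes in mice, was at -2.51, -3.24 and -4.78 in the superficial, middle and deep zones. Its reported probe was not well above background on the fetal arrays. YAP1 ran the other way with adult depth, at -6.70, -4.71 and -3.36, and was 10.1-fold lower in the superficial than in the deep zone. NFATC1, a transcription factor of the calcineurin pathway, was 48.3-fold and 9.99-fold higher in the intermediate and outer interzone than in transient cartilage, but it differed little with adult depth (-1.50, -0.53 and -0.65 in the superficial, middle and deep zones).

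**Figure D4:**
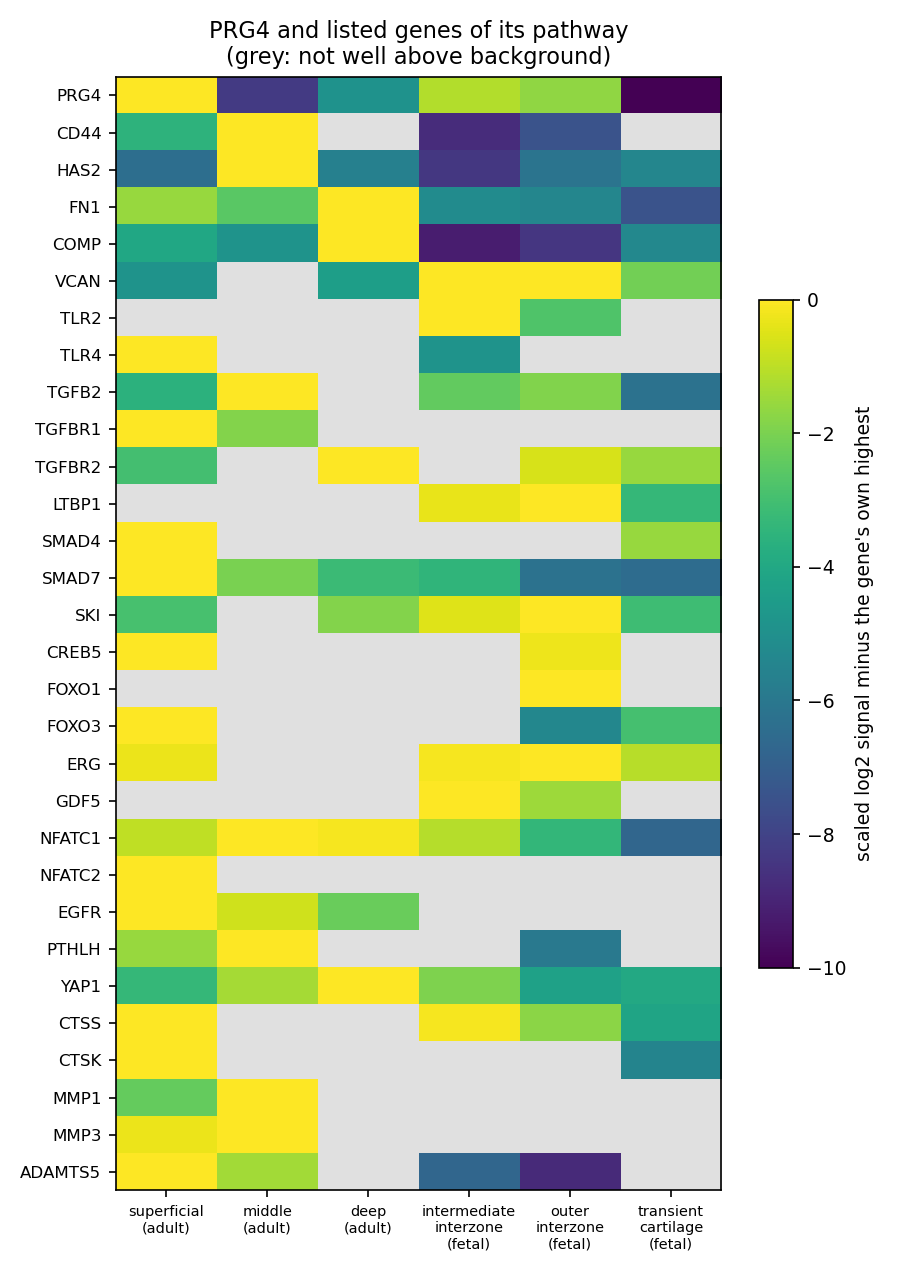
Scaled log2 signal of PRG4 and 29 listed genes on the 6 arrays, each minus the gene's own highest level, so that yellow is a gene's brightest array; grey marks arrays where the reported probe was not well above background. PRG4 is brightest in the superficial zone and darkest in transient cartilage, CD44 and TGFB2 are brightest in the middle zone, and GDF5 shows on the interzone arrays alone.

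Proteases that can cut lubricin or the matrix around it were detected for 10 of 15 genes in the superficial zone, 6 in the middle zone and 3 in the deep zone. The shares of all probes well above background in these zones were 26.4%, 8.4% and 10.9%, counted per probe. MMP3, the gene of stromelysin-1, was at 1.57 in the superficial and 1.87 in the middle zone. MMP1, the gene of interstitial collagenase, was at -1.60 and 0.76 in these zones, and neither was detected in the deep zone. CTSK, the gene of cathepsin K, was at 0.72 in the superficial zone and -4.76 in transient cartilage and was not detected elsewhere. CTSS, the gene of cathepsin S, which cuts lubricin, was 16.3-fold and 5.35-fold higher in the intermediate and outer interzone than in transient cartilage. In each interzone comparison 5 proteases were measured, of which 2 in the intermediate and 1 in the outer interzone were at least 4-fold higher, beside 14.8% and 10.5% of all measured genes.

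Among 5 genes with related domains on the array, HPX, the gene of hemopexin, was not detected on any array. VTN, the gene of vitronectin, and ENPP3 differed from transient cartilage by less than 4-fold in both interzone regions. ENPP1 was 1.92-fold and 4.77-fold lower in the intermediate and outer interzone than in transient cartilage. ENPP2, a gene for a lipid-producing enzyme, shared the dip of PRG4 in the middle zone: it was at -2.49 in the superficial and -2.33 in the deep zone and not well above background in the middle zone, with lower bounds of 11.4-fold for the superficial and 12.8-fold for the deep zone over it. In the fetal limb it was 2.61-fold and 2.31-fold higher in the intermediate and outer interzone than in transient cartilage. The low detection in the middle zone stands beside the dip of ENPP2 as well.

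Markers of synovial lining and fibroblasts, cell types that can also make lubricin or lie beside the sampled tissue, moved partly with PRG4. Of 9 such genes on the array, 7 were well above background in the superficial zone, 0 in the middle zone, 1 in the deep zone, 7 in the intermediate interzone, 6 in the outer one and 5 in transient cartilage. Of all probes, 26.4%, 8.4%, 10.9%, 36.9%, 43.3% and 44.6% were well above background on these arrays in the same order. These shares are per probe, while genes were counted by any probe. Their summed scaled level was 5.77 in the superficial zone, 0.0385 in the middle zone and 0.0721 in the deep zone. It was 44.2 in the intermediate interzone, 31.5 in the outer one and 13.3 in transient cartilage. VCAM1, an adhesion molecule of lining cells, was at 1.02 in the superficial zone and between -3.93 and -2.97 in the fetal regions. Against transient cartilage, 1 of 5 measured members was at least 4-fold higher in each interzone region and 0 were lower by as much, beside 14.8% and 10.5% of all genes higher. A further 2 members were detected in the intermediate interzone and 1 in the outer one but not in transient cartilage. LUM was 2.58-fold and 2.87-fold lower in these regions. The 1 higher gene was COL3A1, a fibrous collagen gene, at 11.4-fold and 7.90-fold in the intermediate and outer interzone. For COL3A1 the superficial zone exceeded the middle zone by at least 117-fold. The collagen gene COL1A1, by contrast, was at -7.90 in the superficial zone, against 3.44 in the intermediate interzone. The part of such cells in the PRG4 levels was not tested.

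Tendon and ligament markers were detected for 3 of 6 genes in the superficial zone, 1 in the middle zone, 2 in the deep zone, 4 in the intermediate interzone, 5 in the outer one and 3 in transient cartilage. On these arrays 26.4%, 8.4%, 10.9%, 36.9%, 43.3% and 44.6% of all probes were well above background, counted per probe. Over transient cartilage, 3 of 3 measured markers were higher by 4-fold or more in each interzone region, beside 14.8% and 10.5% of all genes, with median differences of 2.75 and 4.04 in the intermediate and outer one. MKX was 51.0-fold and 16.4-fold higher there, and the matrix gene ASPN had lower bounds of 397-fold and 205-fold. SCX was well above background in the outer interzone alone (-7.49), and TNMD on no array. The measured markers and ASPN moved with PRG4 in the fetal limb, and their part in its difference was not tested.

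Of the endothelial list of 5 genes, VWF was detected on the adult arrays and none on the fetal arrays. In the leukocyte list of 6 genes, CD14 and TYROBP were not detected on any array. CSF1R was well above background on all 6 arrays, and CD68 and LAPTM5 on 5 each. Of 3 members measured in both the superficial and the middle zone, 2 were at least 4-fold lower in the superficial zone, beside 36.9% of all genes. These were CSF1R (22.5-fold) and CD68 (6.69-fold). PTPRC was bright on every array (4.42 to 5.85) by its reported probe, but the median of its 15 probes lay between -9.92 and -4.96, so this gene's probes disagreed. Bone markers were detected for 4 of 6 genes in the superficial zone, 2 in the middle zone, 0 in the deep zone, 2 in the intermediate interzone, and 1 each in the outer interzone and transient cartilage. Counted per probe, 26.4%, 8.4%, 10.9%, 36.9%, 43.3% and 44.6% of all probes were well above background on these arrays in that order.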

How the data were processed

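The authors deposited scanner output of 6 single-colour arrays, and per the file headers the software was Agilent Feature Extraction, version 10.7.3.1. The value used was the processed signal, which per the file headers is a background-subtracted linear intensity. Per the labels' protocols, SuperAmp-amplified cDNA (250 ng) was hybridised for 17 h. The labels name an 8x60K design, while the files hold 45220 spots. Control spots (1417) and outlier spots (3 to 80 per array) were left out. The deposited series table was a ratio, the processed signal over each array's median, as set against the scanner values, and served as an alternative.

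The deposited intensities were put on the log2 scale, and each array's 75th percentile, taken over the 1767 probes that passed the background flag on every array, was subtracted. Where a gene had several probes, the one with the highest mean was reported. Probes were named from their descriptions with the help of a RefSeq gene table. Gene numbers named 13473 probes, current symbols 9042, while 758 had symbols absent from that table, and accessions named 289, older symbols 215 and gene names 114, and 19712 stayed without a name. Bounds compare the bright array with the lowest signal well above background on the dim array. The spot error comes from the scanner software, and the number of arrays limits the precision.

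PRG4, the gene lists and the comparisons were chosen with earlier results of these data known. Genes named are PRG4, the 10 most and 4 least like it (range of at least 16-fold), the 10 brightest genes detected only where PRG4 was high, list members with the largest differences or a stated role, and neighbours of PRG4 in each order. Some were left out for length. Alternatives were a 50th percentile, all probes, quantile and normexp (offset 50) scaling with limma 3.58.1 in R 4.3.3, which was tested on simulated data, the deposited table, the other PRG4 probes and their mean, and another likeness measure. Python 3.11.15 made the rest.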

Additional observations from a re-analysis of the deposited data

How the results depend on the processing

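Each PRG4 difference (log2) was recomputed under 10 alternatives, and all kept their direction except the adult minus fetal mean, which was -0.41 with the authors' values, against 0.14. With the 50th percentile, the intermediate interzone exceeded transient cartilage by 9.10 and the outer interzone by 0.16, and superficial minus middle was 7.97, superficial minus deep 4.38 and middle minus deep -3.60. With the percentile over all probes, outer interzone minus transient cartilage was 8.92, superficial minus middle 8.06, superficial minus deep 3.99, middle minus deep -4.06, superficial minus intermediate interzone 3.47 and adult minus fetal 2.84. With quantile normalization, intermediate interzone minus transient cartilage was 9.94, outer interzone minus transient cartilage 9.71, intermediate minus outer interzone 0.23, superficial minus middle 6.69, superficial minus deep 5.55, middle minus deep -1.14, superficial minus intermediate interzone 1.48 and adult minus fetal 0.79. With normexp, intermediate interzone minus transient cartilage was 8.61, outer interzone minus transient cartilage 8.10, superficial minus middle 7.56 and middle minus deep -2.46. With the authors' values, outer interzone minus transient cartilage was 9.54, intermediate minus outer interzone 0.23, superficial minus middle 10.24, superficial minus deep 5.995, middle minus deep -4.24 and superficial minus intermediate interzone 1.67. Probe A_69_P004132 gave 9.96 for intermediate interzone and 9.37 for outer interzone minus transient cartilage, 8.73 for superficial minus middle and 5.29 for superficial minus deep, and probe A_69_P004131 gave 5.20 for superficial minus deep and -3.13 for middle minus deep. The cause of these shifts was not tested. Of the 10 genes most like PRG4, 9 remained with root mean square distance, 8 with the 50th percentile and 4 with quantile normalization. No paired analysis was possible because each group had 1 array. PRG4 was 6.68 times the lowest signal well above background in the middle zone, which limits how far its level there can be trusted.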
